A study of Mus musculus with 6 samples.

Results

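The 10 genes of systemic and cellular iron handling were followed in the mouse counts of libraries from mice with a human tumor in the liver. They were chosen by name, as hepcidin, transferrin, its receptors, the ferritins and ferroportin with the hepcidin regulators Hfe and Hjv, and all 10 were found among the 56884 genes of the mouse table. Each of the 10 passed the minimum of 10 counts over all libraries and was tested with 18018 genes in all.

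The liver sets the iron level of the body. Hepatocytes secrete the peptide hepcidin, which binds the iron exporter ferroportin on macrophages and enterocytes and has it degraded, so that less iron enters the plasma, where transferrin carries it. Hemojuvelin, HFE and transferrin receptor 2 form a sensing unit on hepatocytes that feeds the BMP and SMAD pathway of hepcidin transcription, and inflammation raises hepcidin through IL-6 and STAT3. Inside cells, the iron regulatory proteins bind hairpins called iron responsive elements (IREs) when iron is low, which blocks translation of ferritin and ferroportin and stabilizes the mRNA of transferrin receptor 1.

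Both groups were male athymic BALB/c (nu/nu) mice with an age of 6 weeks in the labels, with QGY-7703 cells, a human hepatocellular carcinoma (HCC) line, implanted in the liver. AAV8 with a TBG promoter, which is active in hepatocytes, carried a control siRNA (siControl) or an siRNA against mouse Aatf (siAATF). The virus entered by tail vein 1 week after the cells, 3 weeks before the end of the experiment. Each group had 3 libraries, and since the labels do not say that these are separate animals, p-values measure the spread between the libraries, which may be technical.

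The depth of the mouse counts differed between the groups, with 213022 to 913584 counts in siControl and 11835898 to 42563694 in siAATF. Of the counts on genes of both species, mouse genes took 0.778% to 1.93% in siControl but 97.9% to 99.0% in siAATF. Group and mouse share thus changed together, so that their effects on the counts cannot be told apart. The target Aatf had 12, 1 and 23 counts in the 3 siControl libraries, always listed in the order of replicates 1 to 3, against 384, 109 and 340 for siAATF. Its log2 fold change was 0.93 (SE 0.47, adjusted p = 0.152, quasi-likelihood test of edgeR, Benjamini-Hochberg adjustment, as for every adjusted p from edgeR given here), but -0.91 under library size alone and -3.08 (adjusted p = 0.000294, edgeR) under scaling by hepatocyte marker counts, both above the median of all genes under that scaling (-1.30 and -3.67), and 5.04 (adjusted p = 3.77e-10, edgeR) per count of both species, where that median was 4.66. Aatf thus did not show its label after TMM normalization, and "siAATF" stands for the library labelled siAATF. The summed level of 10 hepatocyte markers was 4619 to 13071 in siControl against 16909 to 63602 in siAATF, as CPM (mouse counts scaled to the same total in every library). All 10 of these markers rose, with a median log2 fold change of 4.79 against 0.50 for all genes. The 6 macrophage markers all fell, from summed levels of 2310 to 6125 CPM to 23.1 to 66.7 CPM, as did the 5 activated fibroblast markers, from 14331 to 23067 CPM to 25.5 to 103 CPM. Kupffer cell markers, for the resident macrophages of the liver, summed to 455 to 2148 CPM and 53.5 to 135 CPM, with C1qa the 1 of 6 called lower and 0 higher (edgeR, 2 at an unadjusted p under 0.05), and Timd4 and Marco were at 0 in siControl replicate 2. Without C1qa, a step chosen after its values were seen, they summed to 32.86 to 195 CPM and 32.95 to 90.6 CPM, and the log2 fold changes of the other 5 were 0.14 to 1.95. The part of these marker differences in the values of the iron genes was not tested. In bulk samples, fewer cells of a type and less RNA per cell cannot be told apart.

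Hepcidin has a pair of gene copies in the mouse, and their promoters are shown because the copies differed in their counts. Both sequences are the 250 bases before the gene start in GRCm39, read 5′ to 3′ on the minus strand of chromosome 7. Capitals mark GGCGCC, the BMP responsive element recognised by SMAD proteins, and TTCNNNGAA, the form bound by STAT factors, searched on both strands. GGCGCC and TTCNNNGAA share no bases here.
Hamp, chr7:30643458-30643707: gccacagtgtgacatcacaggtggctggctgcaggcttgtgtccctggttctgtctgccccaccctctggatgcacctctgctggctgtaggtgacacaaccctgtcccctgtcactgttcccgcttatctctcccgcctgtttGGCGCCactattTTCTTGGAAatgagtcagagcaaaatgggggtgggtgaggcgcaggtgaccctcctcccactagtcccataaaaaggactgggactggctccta
Hamp2, chr7:30623607-30623856: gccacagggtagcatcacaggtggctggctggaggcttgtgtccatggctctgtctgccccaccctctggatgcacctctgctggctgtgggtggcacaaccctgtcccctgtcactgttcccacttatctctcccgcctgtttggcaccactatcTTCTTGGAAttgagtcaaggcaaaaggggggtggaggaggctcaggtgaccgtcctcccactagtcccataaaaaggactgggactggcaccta
The windows were identical at 230 of 250 bases (92.0%), with a longest shared run of 40 bases, and the coding sequences at 233 of 249 bases (93.6%). TTCTTGGAA stood 94 to 86 bases before the start of both genes. GGCGCC stood 106 to 101 bases before the start of Hamp and was not among the letters of the Hamp2 window. Among 21617 promoters of coding genes with the same length, 11.5% held GGCGCC and 7.16% held TTCNNNGAA. A match is a description of letters and not evidence of binding.

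The IREs of the storage, export and uptake genes are shown because those genes are controlled through them. They were found as a CAGTGN loop, in capitals, under 5 paired bases with a C before the stem, and are printed in the sense of the transcript, from GRCm39.
Fth1, 5′ UTR in exon 1, chr19:9960096-9960124, plus strand: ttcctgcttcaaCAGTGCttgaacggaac
Ftl1, 5′ UTR in exon 1, chr7:45109203-45109231, minus strand: gtcttgcttcaaCAGTGTttgaacggaac
Slc40a1, 5′ UTR in exon 1, chr1:45964625-45964653, minus strand: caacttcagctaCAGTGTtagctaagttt
Tfrc, 3′ UTR in exon 19, chr16:32450037-32450065, plus strand: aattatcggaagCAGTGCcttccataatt
Tfrc held 4 such elements in its 3′ UTR, of which the first is printed, and the other 6 members held none in either UTR. Among canonical coding transcripts, 24 of 20696 5′ UTRs (0.116%) and 124 of 21536 3′ UTRs (0.576%) held such an element. Protein regulation through these elements was not measured by the counts.

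Of the hepcidin genes, Hamp rose in siAATF after TMM normalization, but not per hepatocyte marker count. Hamp (ENSMUSG00000050440, chromosome 7, 30641793 to 30643457), the main hepcidin gene, had 417, 34 and 104 counts in siControl against 10873, 7763 and 50789 in siAATF. TMM normalization aims to set the typical gene equal between libraries, though the median log2 fold change of all genes still stood at 0.50. After it, the level of Hamp was 335, 82.1 and 58.0 CPM in siControl but 375, 1566 and 2817 CPM in siAATF. The groups did not overlap, but siControl replicate 1 and siAATF replicate 1 were close. From a mean of 158 ± 153 (SD, n = 3) to 1586 ± 1221 (SD, n = 3), the log2 fold change was 3.32 (SE 0.87, adjusted p = 0.0112, edgeR), which turned to -0.48 under scaling by hepatocyte marker counts. Leaving out siControl replicate 1 moved it to 4.51, and leaving out siAATF replicate 3 to 2.71. The call was lost without siControl replicate 2 (3.01, adjusted p = 0.0680, edgeR) and without siControl replicate 3 (2.90, adjusted p = 0.0748, edgeR).

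Hamp2 (ENSMUSG00000056978, chromosome 7, 30621797 to 30623606), the neighboring copy, was at 0 counts throughout siControl against 224, 16 and 185 counts in siAATF. Its level in siAATF was 7.73, 3.23 and 10.3 TMM-normalized CPM, and 3 counts correspond to 2.41, 7.25 and 1.67 CPM in the siControl libraries. Measured against the mean of these floors, Hamp2 was at least 1.87-fold higher. Hamp2 passed the count filter through its siAATF counts alone, so its call is given no p here, and siAATF replicate 2 lay below the floor of siControl replicate 2. After thinning every library to the lowest mouse total, Hamp2 was not tested, and filterByExpr also left it out. Hamp2 held 2.02% (95% Wilson interval 1.77% to 2.30%), 0.206% (0.127% to 0.334%) and 0.363% (0.314% to 0.419%) of all hepcidin counts in siAATF replicates 1 to 3. The 0 of 417, 34 and 104 hepcidin counts in siControl allow shares of up to 0.719%, 8.82% and 2.88% by a limit of 3 counts, and of up to 0.913%, 10.2% and 3.56% by the 95% Wilson interval. In siControl replicates 2 and 3 a share as high as in any siAATF library was thus not detectable, and in siControl replicate 1 the shares of siAATF replicates 2 and 3 were not. These intervals and floors cover counting error alone, because the reads are PCR copies without molecular identifiers. The longest run shared by the annotated Hamp and Hamp2 transcripts was 87 bases, and a read placed equally well on both copies was discarded, so that both counts are uncertain.

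**Figure D1:**
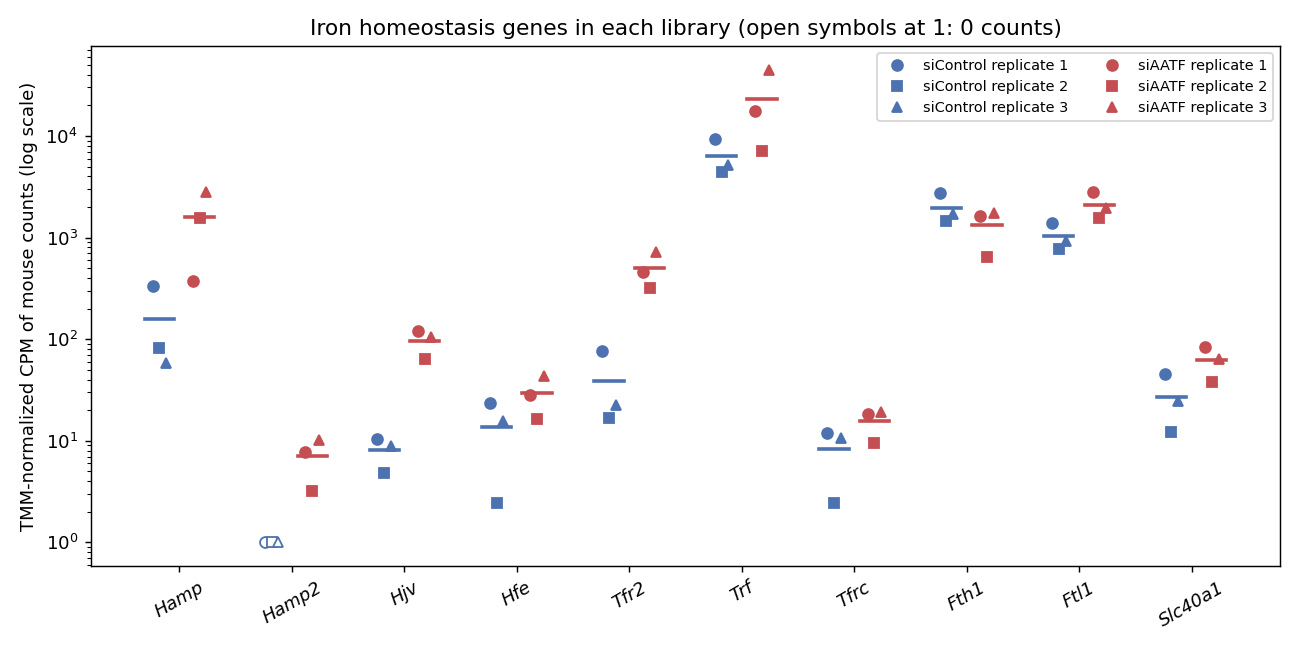
TMM-normalized CPM (log axis) of the 10 genes in each of 3 siControl and 3 siAATF libraries, with symbols for replicates, lines for group means and open symbols at 1 for 0 counts. Hamp, Hamp2, Tfr2, Hjv and Ftl1 do not overlap between the groups, whereas Fth1, Trf, Tfrc, Hfe and Slc40a1 do.

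Of the 3 sensors of iron, Hjv and Tfr2 were called higher, beside 17.6% of all genes tested, and the difference between them and Hfe was not tested. Hjv (ENSMUSG00000038403, chromosome 3, 96432488 to 96436526), which encodes the BMP co-receptor hemojuvelin, had 13, 2 and 16 counts in siControl against 3475, 315 and 1900. Its TMM-normalized level rose from 10.4, 4.83 and 8.92 CPM to 120, 63.5 and 105 CPM. With means of 8.06 ± 2.90 (SD, n = 3) against 96.3 ± 29.3 (SD, n = 3), the log2 fold change was 3.48 (SE 0.45, adjusted p = 0.000152, edgeR) but -0.74 under hepatocyte scaling. Tfr2 (ENSMUSG00000029716, chromosome 5, 137568102 to 137585743), a transferrin receptor of hepatocytes and erythroid cells, had 95, 7 and 40 counts against 13197, 1582 and 12987. Its level was 76.3, 16.9 and 22.3 CPM against 455, 319 and 720 CPM, and no siControl library reached the siAATF range. With means of 38.5 ± 32.8 (SD, n = 3) against 498 ± 204 (SD, n = 3), the log2 fold change was 3.66 (SE 0.64, adjusted p = 0.00101, edgeR) but -0.35 under hepatocyte scaling, and 4.62 without siControl replicate 1. Hfe (ENSMUSG00000006611, chromosome 13, 23886017 to 23894837), a class I-like protein that binds the transferrin receptors, had 29, 1 and 28 counts against 826, 81 and 786. Its levels of 23.3, 2.42 and 15.6 CPM and 28.5, 16.3 and 43.6 CPM overlapped, and its log2 fold change was 0.95 (SE 0.53, adjusted p = 0.195, edgeR). With replicate number as a block Hfe was called (1.11, adjusted p = 0.0258, edgeR), though the numbers were not taken to pair the libraries.

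The plasma carrier and its ubiquitous receptor did not pass the test. Trf (ENSMUSG00000032554, chromosome 9, 103081200 to 103107643), which encodes transferrin, the secreted iron carrier of hepatocytes, had 11615, 1843 and 9381 counts against 506699, 35581 and 811709. Its TMM-normalized level was 9326, 4452 and 5233 CPM against 17485, 7177 and 45027 CPM. The lowest siAATF library was within the siControl range, and the log2 fold change was 1.87 (SE 0.96, adjusted p = 0.159, edgeR), or 1.04 without siAATF replicate 3. Trf was the most abundant mouse gene by count in siControl replicate 1 and held rank 8 and 3 in the other siControl libraries. Tfrc (ENSMUSG00000022797, chromosome 16, 32427738 to 32451612), transferrin receptor 1, which brings transferrin-bound iron into most cells, had 15, 1 and 19 counts against 532, 47 and 346. Its levels were 12.0, 2.42 and 10.6 CPM against 18.4, 9.48 and 19.2 CPM, and the log2 fold change was 0.75 (SE 0.49, adjusted p = 0.264, edgeR). With 1 count in siControl replicate 2, neither Tfrc nor Hfe could be measured well there.

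The receptors were also compared within each library, where no scaling between libraries enters. Tfr2 counts were 633%, 700% and 211% of Tfrc counts in siControl and 2481%, 3366% and 3753% in siAATF. The groups did not overlap, with a log2 difference of 2.97 (p = 0.1 by a two-sided exact permutation test, which cannot give less with 3 libraries a group, and 0.15 adjusted over 6 ratios). In siControl replicate 2 this ratio rests on 7 and 1 counts.

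The ferritin chains, which together form the shell that stores iron, differed in direction, though neither passed the test. Fth1 (ENSMUSG00000024661, chromosome 19, 9957962 to 9962462), the heavy chain that oxidises iron, had 3390, 606 and 3040 counts against 46796, 3218 and 31741. Its level of 2722, 1464 and 1696 CPM against 1615, 649 and 1761 CPM overlapped (log2 fold change -0.55, SE 0.61, adjusted p = 0.509, edgeR). Ftl1 (ENSMUSG00000050708, chromosome 7, 45107368 to 45109308), the light chain that stabilises the iron core, had 1743, 317 and 1647 counts against 80679, 7656 and 35282. Its level was 1399, 766 and 919 CPM in siControl and 2784, 1544 and 1957 CPM in siAATF, without overlap, but its log2 fold change of 1.03 did not pass (SE 0.58, adjusted p = 0.197, edgeR). Within libraries, Fth1 counts were 194%, 191% and 185% of Ftl1 counts in siControl and 58.0%, 42.0% and 90.0% in siAATF. The siControl libraries thus lay within 10 percentage points of each other and every siAATF library lay below them, with more Ftl1 than Fth1 counts. The log2 difference was -1.66 (two-sided exact permutation test, p = 0.1, adjusted p = 0.15 over the 6 ratios). Ferritin has many processed copies in the genome. Ftl1-ps1 on chromosome 13 held 13, 2 and 9 counts against 701, 93 and 344, other named copies at most 10 counts in any library, and ferritin reads that matched several copies were discarded.

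Ferroportin, the only known cellular iron exporter and the target of hepcidin, did not pass the test. Slc40a1 (ENSMUSG00000025993, chromosome 1, 45947228 to 45964742) had 56, 5 and 44 counts against 2454, 189 and 1143. Its level was 45.0, 12.1 and 24.5 CPM against 84.7, 38.1 and 63.4 CPM, where only siControl replicate 1 exceeded siAATF replicate 2. The log2 fold change was 1.13 (SE 0.47, adjusted p = 0.0872, edgeR). With replicate number as a block Slc40a1 was called (1.25, adjusted p = 0.00670, edgeR), though the numbers were not taken to pair the libraries. Slc40a1 was also called without siControl replicate 1 (1.66, adjusted p = 0.0398, edgeR), without siAATF replicate 2 (1.44, adjusted p = 0.0175, edgeR) and with no count filter (1.25, adjusted p = 0.0197, edgeR). Macrophage markers fell in the same libraries. Slc40a1 counts were 1.30%, 1.02% and 1.24% of the summed counts of the 6 macrophage markers in siControl and 86.4%, 69.0% and 51.5% in siAATF. The log2 difference of 5.78 had no overlap (two-sided exact permutation test, p = 0.1, adjusted p = 0.15 over the 6 ratios). In the TMM fit these 6 markers had a median log2 fold change of -4.59, so the ratio carries their fall. The 5 Kupffer cell markers other than C1qa had 0.14 to 1.95, and no ratio to them was computed. The source cells of Slc40a1 were not tested.

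**Figure D2:**
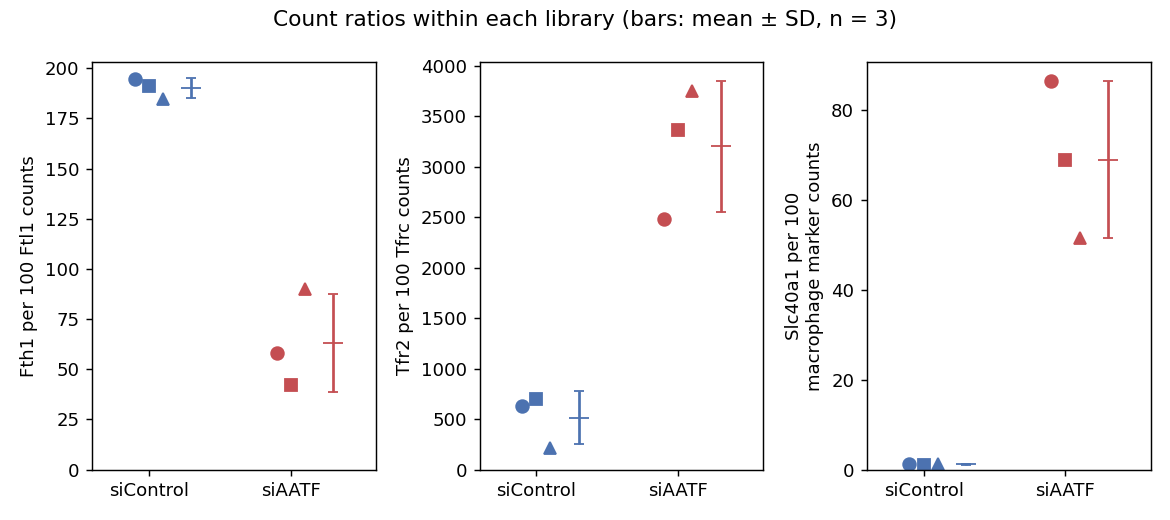
Counts of Fth1 per 100 Ftl1, Tfr2 per 100 Tfrc and Slc40a1 per 100 macrophage marker counts (linear axes from 0) in each of 3 siControl (blue) and 3 siAATF (red) libraries, with symbols for the replicates and bars for mean ± SD (n = 3). Fth1 lies at 185 to 194 in siControl and 42.0 to 90.0 in siAATF, whereas the other ratios are higher in every siAATF library.

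Of the 10 genes, Hamp, Hjv and Tfr2 were called higher with counts in both groups, beside 17.6% of all genes tested. The fit also called Hamp2, which makes 4, but that call rests on 0 siControl counts and was not possible under filterByExpr or after thinning. None was called lower by edgeR, beside 14.4% of all genes, and the count was also 0 at an unadjusted p under 0.05, with DESeq2 and with limma-voom. DESeq2 called 6 higher, adding Trf (log2 fold change 1.72, adjusted p = 0.0105) and Ftl1 (0.92, adjusted p = 0.0399). The groups did not overlap for 5 of the 10, Hamp2 included, which is no more than the 52.7% of all genes without overlap. The fitted median of the 10 was 1.50 on the log2 scale, or 1.08 with Hamp2 at its bound, against 0.50 for all genes tested.

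Per unit of transcript length (TPM, counts divided by exon length and set to a common total in each library), the genes kept a wide range. Trf led in siControl with 8453 ± 3041 (SD, n = 3), followed with a slight overlap by Fth1 with 4625 ± 1342, Ftl1 with 3908 ± 1067 and Hamp with 1386 ± 1278 TPM. The ranges of Fth1 and Ftl1 overlapped, and in each library Fth1 was the higher. Tfr2, Slc40a1, Hjv, Hfe and Tfrc followed with 41.9, 29.5, 14.7, 14.1 and 5.94 TPM, each neighbor within the spread of the next, and Hamp2 was at 0. In siAATF, Trf also had the highest mean with 6914 ± 5413 TPM, followed by Hamp with 2833 ± 2164 TPM, with overlapping ranges. The exon length of Hamp was 410 bases in the mouse table but 684 in the annotated transcript. Its TPM and its place among the genes depend on the length used. Ftl1 followed with 1850 ± 1076 and Fth1 with 736 ± 436 TPM. Below them came Tfr2 with 123 ± 56.6 and Hjv with 40.4 ± 21.8 TPM, whose ranges of 58.5 to 165 and 19.0 to 62.7 TPM overlapped slightly. Slc40a1, Hamp2, Hfe and Tfrc had means of 15.9, 13.7, 6.83 and 2.55 TPM, again with overlap between neighbors. Fth1 lay above Tfr2 in every siAATF library.

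The direction of most of these genes depended on what the counts were compared with. The median log2 fold change of all genes tested was 0.50 after TMM normalization, -1.30 under library size alone, 4.66 per count of both species and -3.67 per hepatocyte marker count, so each value has to be read against that median. Under library size alone Tfrc, Hfe, Ftl1 and Slc40a1 turned negative (-0.98, -0.79, -0.70 and -0.57), Fth1 was called lower (-2.27, adjusted p = 0.0164, edgeR) beside 40.3% of all genes, and Hamp, still higher at 1.44, lost its call (adjusted p = 0.113, edgeR). Scaled by counts of both species, all 10 were called higher, Fth1 included, beside 87.2% of all genes. Relative to each scaling's median, Fth1 was below it and the other 8 genes with counts in both groups above it under all of these scalings.

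**Figure D3:**
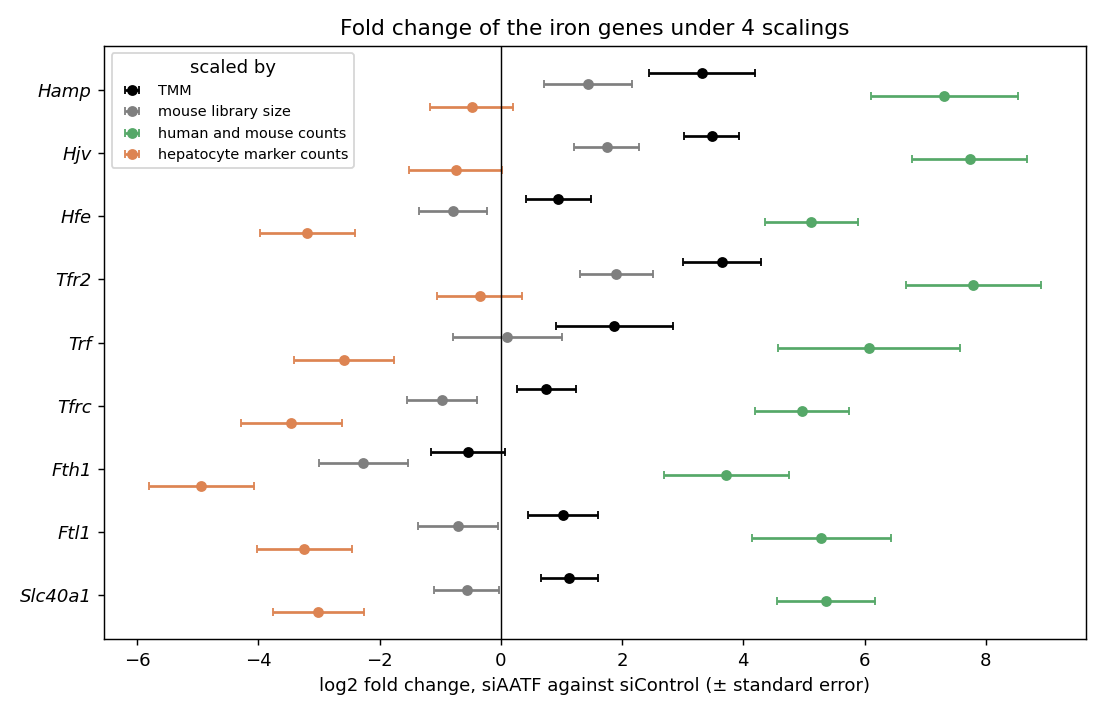
Log2 fold change (siAATF against siControl) of 9 of the 10 genes under 4 scalings, with colors for the scalings and bars for the standard error, leaving out Hamp2, which had 0 counts in siControl. After TMM normalization 8 of the 9 lie above 0, and per hepatocyte marker count all 9 lie below 0.

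Per 1000 counts of the 10 hepatocyte markers, 6 of the genes were called lower in siAATF and Hamp, Tfr2 and Hjv were not called. Hamp stood at 45.4, 34.6 and 20.4 in siControl against 4.02, 38.8 and 29.0 in siAATF, with overlap and a log2 fold change of -0.48 (adjusted p = 0.564, edgeR). Tfr2 had 10.3, 7.11 and 7.86 against 4.87, 7.90 and 7.41, and Hjv 1.41, 2.03 and 3.14 against 1.28, 1.57 and 1.08 (adjusted p = 0.689 and 0.406, edgeR). These hepcidin and sensor genes were thus not distinguishable between groups per hepatocyte marker count, which does not show that they were equal. Fth1 fell from 369, 616 and 597 to 17.3, 16.1 and 18.1 counts per 1000 marker counts (log2 fold change -4.94, adjusted p = 5.93e-08, edgeR). Ftl1, from 190, 322 and 324 to 29.8, 38.3 and 20.1, and Trf, from 1263, 1873 and 1844 to 187, 178 and 463, also fell by this measure (-3.24 and -2.59, adjusted p = 7.94e-05 and 0.00287, edgeR). Tfrc, Hfe and Slc40a1 were lower as well (-3.46, -3.19 and -3.01), which made 6 of 10 genes called lower, beside 68.4% of all genes. Of these 6, Fth1 alone lay below the median of all genes on this scale, -3.67. As a ratio within libraries, Trf, itself a gene of hepatocytes, was 126% to 187% of the summed hepatocyte markers in siControl and 17.8% to 46.3% in siAATF, with a log2 difference of -2.72 (two-sided exact permutation test, p = 0.1, adjusted p = 0.15 over the 6 ratios). Hamp to hepatocyte markers did not separate the groups (log2 difference -0.95, exact permutation test, p = 0.6).

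**Figure D4:**
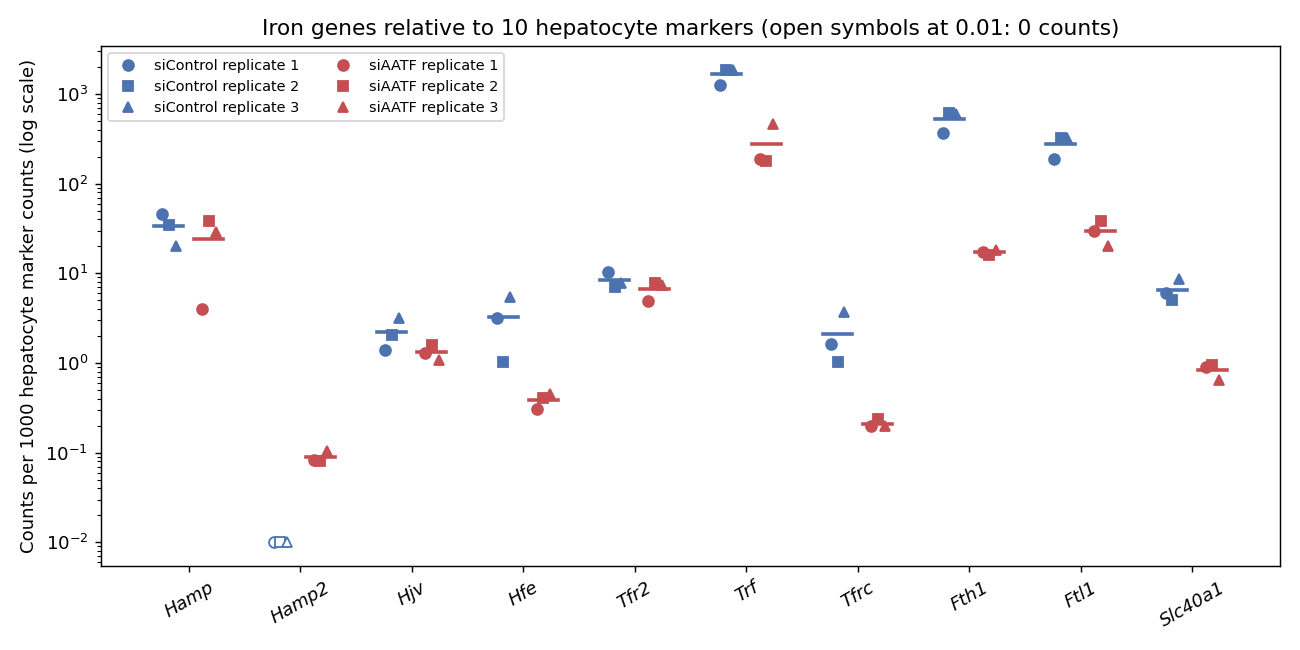
Counts per 1000 hepatocyte marker counts (log axis) of the 10 genes in each library, with symbols for replicates, lines for group means and open symbols at 0.01 for 0 counts. Hamp, Tfr2 and Hjv overlap between the groups, and Fth1, Ftl1, Trf, Tfrc, Hfe and Slc40a1 lie lower in siAATF.

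Of 74 other genes of iron and heme handling, 72 were tested, 20 were called higher and 5 lower, beside 17.6% and 14.4% of all genes. On the log2 scale their median was 0.73, which became 0.69 when Cd163 and Flvcr2, both at 0 counts in siControl, were set to their bound. Among 20 regulators of hepcidin, 2 rose and 2 fell. Tmprss6, the protease that cleaves hemojuvelin and so restrains hepcidin, rose from 32.8 ± 28.0 to 466 ± 91.3 CPM (log2 fold change 3.78, adjusted p = 0.000583, edgeR), but stood at -0.11 per hepatocyte marker count, and at 4.75 without siControl replicate 1. Il6ra, the IL-6 receptor chain, rose by 1.43 (adjusted p = 0.0112, edgeR), which was -0.41 under library size and -2.76 under hepatocyte scaling and lost its call without siControl replicate 3 (adjusted p = 0.0755, edgeR) and after thinning every library to the lowest mouse total (0.52, adjusted p = 0.469, edgeR). Id1, a target of BMP signaling, fell by 1.61 from 22.7 ± 6.13 to 7.07 ± 2.11 CPM, and Bmpr2, a BMP receptor, fell by 1.45 from 59.4 ± 14.6 to 21.5 ± 6.29 CPM (adjusted p = 0.0101 and 0.0105, edgeR), both higher per count of both species. Bmpr2 lost its call without siControl replicate 3 (adjusted p = 0.0652, edgeR), and Id1 after thinning (-2.17, adjusted p = 0.0781, edgeR).

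Among 17 genes of iron and heme uptake, 4 were called higher and 2 lower, beside 17.6% and 14.4% of all genes. Of the 4, Cd163 and Flvcr2 passed the count filter through siAATF alone and were at least 1.08-fold and 1.05-fold higher, so that their calls support no direction. Steap3, an endosomal ferrireductase, rose by 1.62 and Scara5, a ferritin receptor, by 1.50 (adjusted p = 0.00997 and 0.0497, edgeR), and both turned negative under library size and hepatocyte scaling. Steap3 lost its call without siControl replicate 3 (adjusted p = 0.0757, edgeR) and after thinning (1.59, adjusted p = 0.0602, edgeR), and Scara5 without any 1 siControl library or without siAATF replicate 3 (adjusted p = 0.0976 to 0.237, edgeR). Steap2, another metalloreductase, fell from 23.6 ± 4.75 to 6.51 ± 2.39 CPM (log2 fold change -1.87, adjusted p = 0.00421, edgeR), and turned positive per count of both species. The other gene called lower, Steap1, was named after its values were seen, and its mean was under 50 counts. One of 4 export genes tested rose, the heme exporter Abcg2, from 9.35 ± 1.97 to 69.0 ± 16.0 CPM (2.82, adjusted p = 0.000256, edgeR), and -1.44 per hepatocyte marker count. Aco1, which encodes iron regulatory protein 1, was the 1 of 6 genes of storage and IRP control that was called, from 31.3 ± 6.53 to 134 ± 62.2 CPM (2.07, adjusted p = 0.00358, edgeR), with -2.28 under hepatocyte scaling. Under library size alone neither Abcg2 (1.07, adjusted p = 0.0954, edgeR) nor Aco1 (0.37, adjusted p = 0.585, edgeR) was called.

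Of 13 genes of heme synthesis and breakdown, 6 were called higher and 1 lower, beside 17.6% and 14.4% of all genes. Cpox and Alad, enzymes of heme synthesis, rose by 4.13 and 3.11 (adjusted p = 0.000333 and 0.000665, edgeR), Cpox from 13.9 ± 4.03 to 254 ± 188 CPM and Alad from 77.6 ± 30.3 to 668 ± 107 CPM, with Cpox at 0.37 and Alad at -1.12 under hepatocyte scaling, neither of them called (adjusted p = 0.685 and 0.145, edgeR). Without siAATF replicate 2, Cpox stood at 3.41. Alad was also not called under library size alone (1.34, adjusted p = 0.0534, edgeR). Hmox1, heme oxygenase 1, which breaks heme down and releases its iron, fell from 168 ± 44.2 to 14.0 ± 10.5 CPM (log2 fold change -3.56, adjusted p = 0.000812, edgeR), and was 0.76 per count of both species, and -4.15 without siAATF replicate 3. Of 12 genes of mitochondrial iron and Fe-S clusters, 6 were called higher and 0 lower (edgeR), beside the same shares of all genes, and 0 were lower at an unadjusted p under 0.05. Bola3, used in Fe-S cluster assembly, rose by 2.19 from 14.1 ± 4.84 to 66.6 ± 24.8 CPM (adjusted p = 0.00221, edgeR), with -2.06 under hepatocyte scaling and no call under library size alone (0.48, adjusted p = 0.488, edgeR).

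**Figure D5:**
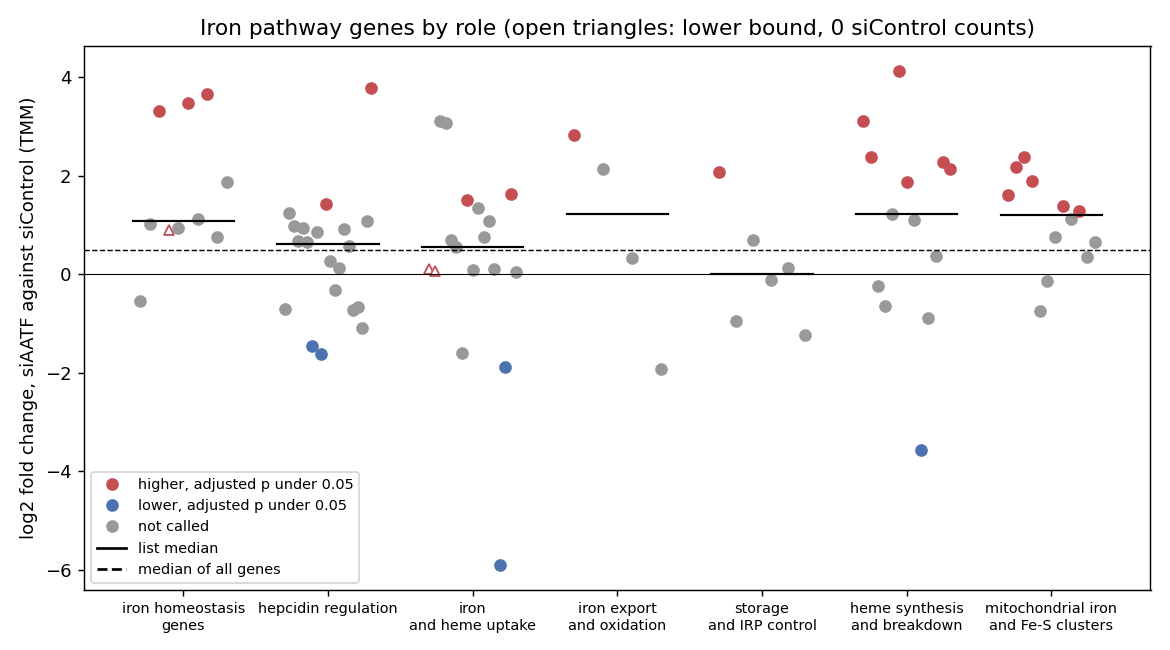
Log2 fold change after TMM normalization of the 10 genes and 72 tested other iron genes by role, with red for higher, blue for lower and grey for not called, list medians as solid lines and the median of all genes, 0.50, as a dashed line. Open triangles mark genes with 0 siControl counts at their lower bound, and Cpox at 4.13 and Hmox1 at -3.56 stand at the ends of the heme list.

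Genes whose pattern over the 6 libraries was most like that of Hamp and of Tfrc were sought among 9466 genes with a mean of at least 50 counts, by the root mean square difference of centred log2(TMM-normalized CPM + 1). For Hamp these were Rnase4 (0.418), Fam25a (0.445) and Slc10a2 (0.493), all of them with their highest level in siAATF replicate 3, as Hamp had. For Tfrc they were Mlx (0.137), Rab5b (0.140) and Cdc123 (0.159), all of them with their lowest level in siControl replicate 2. That library held 2, 4 and 2 counts of these genes and 1 of Tfrc, near or under the floor of 3 counts. Depth and cell markers also differed among these 6 libraries, and the likeness is a description only.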

How the data were processed

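The authors made the libraries with a SMART-Seq kit, trimmed the reads, aligned them with STAR 2.7.11 to the joined human and mouse genomes (GRCh38 and GRCm39), dropped every read with more than 1 position or a match in both species, and counted genes with featureCounts 2.0.1 (DESeq2 1.42.0 and R 4.3.2 for their tests). The deposited values are raw counts per gene, without normalization, in a human and a mouse table. Whether counting used strand is not given in the sources used here. Mouse genes were named from gencode release 39 (the table was counted on release 33), 561 of 56884 staying unnamed. Only totals of the human table were used, after 3 lines of 1 broken gene were left out.

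The mouse table was tested with edgeR 4.0.16 (quasi-likelihood, limma 3.58.1, R 4.3.3), with TMM normalization, a total of at least 10 counts, the group as the only term and a call at a Benjamini-Hochberg adjusted p under 0.05 over 18018 genes. Mouse totals were 213022 to 42563694 counts, and 3 counts correspond to 0.104 to 7.25 TMM-normalized CPM. Ratios within a library were computed with 0.5 added to each count and compared by a two-sided exact permutation test. Named genes are the 10 members and, in each list of other iron genes, the called genes with the 2 largest rises and 2 largest falls among those with a mean of at least 50 counts, of which 1 is not reported here. The members and lists were chosen with earlier results of these data known. Fits were tested on simulated data. Alternatives were DESeq2, RLE, upper-quartile, library-size, both-species and hepatocyte-marker scaling, other count filters, a block for the replicate number, dropping single libraries in turn, limma-voom, thinning to the smallest mouse total and the criteria of the study, an unadjusted p under 0.05 with a log2 fold change of at least 2. Promoters, UTRs and coding sequences were read from GRCm39, and plots were made with matplotlib 3.10.9 in Python 3.11.15.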

Additional observations from a re-analysis of the deposited data

How the results depend on the processing

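The counts of iron homeostasis genes called (4 higher, 0 lower) moved to 10 higher under scaling by all gene counts, to 0 higher and 6 lower under scaling by hepatocyte marker counts, to 1 lower under library size alone and to 1 higher with at least 10 counts in every library, where 4 members could be tested. Other iron genes called higher (20) became 2 under library size, 69 under all gene counts, 0 under hepatocyte scaling, 9 with at least 10 counts in every library and 11 after thinning. Those called lower (5) became 28, 0 and 60 under these 3 scalings (40.3% of all genes were lower under library size, 87.2% higher under all gene counts and 68.4% lower under hepatocyte scaling), 8 under upper-quartile normalization, 2 under the study's criteria and 8 with the replicate block. Leaving out each library gave 10 to 29 higher and 4 to 10 lower, the lowest counts without siControl replicate 3 (10 higher) and without siControl replicates 2 or 3 (4 lower), the highest without siAATF replicate 2 (29 higher) and without siAATF replicate 3 (10 lower).

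The log2 fold change changed sign under library size alone for Tfrc (-0.98), Hfe (-0.79), Ftl1 (-0.70), Slc40a1 (-0.57), Il6ra (-0.41), Scara5 (-0.31) and Steap3 (-0.14). Under all gene counts it did so for Fth1 (3.72), Bmpr2 (2.92), Id1 (2.73), Steap2 (2.34) and Hmox1 (0.76). Under hepatocyte scaling it did so for Tfrc (-3.46), Ftl1 (-3.24), Hfe (-3.19), Slc40a1 (-3.01), Scara5 (-2.87), Il6ra (-2.76), Trf (-2.59), Steap3 (-2.57), Aco1 (-2.28), Bola3 (-2.06), Abcg2 (-1.44), Alad (-1.12), Hjv (-0.74), Hamp (-0.48), Tfr2 (-0.35) and Tmprss6 (-0.11). The cause was not tested. The Hamp2 to Hamp ratio (0.32) was -0.26 after thinning and -0.65 to 1.18 with libraries left out, values set by the 0.5 added to 0 siControl counts of Hamp2, from which no direction is read. Hamp to hepatocyte markers (-0.95) was -1.57 to 0.068, the latter without siAATF replicate 1. Scara5 was no longer called higher under 12 alternatives, of which hepatocyte scaling called it lower.

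Same-numbered libraries deviated together with correlations of 0.15, 0.21 and -0.02 across genes, not all over 0.1, so the numbers were not taken to pair the libraries. The replicate block gave 6 members called higher and 0 lower, adding Hfe and Slc40a1. The siControl depth limits genes such as Hamp2, Hfe and Tfrc, with 0 or 1 count in siControl replicate 2.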

Other observations

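Genes of plasma proteins that bind heme or hemoglobin or oxidise iron varied within siAATF, and these genes were picked after their values were seen. Per 1000 hepatocyte marker counts, Hp, which encodes the hemoglobin carrier haptoglobin, had 742, 1021 and 894 in siControl replicates 1 to 3 against 50.6, 255 and 770 in siAATF. Hpx, which encodes the heme carrier hemopexin, had 653, 1042 and 732 against 49.0, 141 and 703. Cp, which encodes the ferroxidase ceruloplasmin, had 209, 362 and 263 against 14.9, 87.9 and 91.4. For all 3 genes, as for Hamp with 4.02, 38.8 and 29.0, siAATF replicate 1 was the lowest of the siAATF libraries. This also held for Tfr2 with 4.87, 7.90 and 7.41, Hfe with 0.305, 0.405 and 0.448 and, narrowly, Tfrc with 0.1965, 0.2348 and 0.1973. Other iron genes had their lowest siAATF library elsewhere, such as Hjv, Ftl1 and Slc40a1 in replicate 3 and Trf and Fth1 in replicate 2. The order of siAATF replicates 2 and 3 differed between these genes, with Hp and Hpx higher in siAATF replicate 3 and Hamp in siAATF replicate 2. The hepatocyte markers that form the denominator summed to their highest level, 63602 CPM, in siAATF replicate 1, and the part of this in the values was not tested. On this scale Cp had a log2 fold change of -2.10 (adjusted p = 0.00837, edgeR), and Hp and Hpx did not pass (-1.30 and -1.44, adjusted p = 0.124 and 0.0859, edgeR). All 3 lay above the median of all genes on this scale, -3.67, where 68.4% of all genes were called lower. After TMM normalization Cp, Hp and Hpx stood at 2.13, 3.11 and 3.07, none of them called (adjusted p = 0.0548, 0.0618 and 0.0675, edgeR).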
